A study of Dunaliella salina with 4 samples.

Results

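The 200 transcripts described here are those with the largest excess in deep-water cultures of Dunaliella salina among genes counted as a single entry. They were chosen from the deposited normalised counts, which are read counts divided by 1 scaling factor per library. An entry had to be named by a locus tag without a second numeric suffix, which held for 14363 of the 17872 entries of the series. It also had to reach a normalised count of at least 500 in both deep-water libraries, which left a selection pool of 8109 entries. These were ranked by the lower deep-water value divided by the higher control value plus 8, and the 200 with the highest ratio were taken, or 2.47% of the pool.

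D. salina is a wall-less, flagellated green alga of salt lakes and salterns. It balances the salt around it by making and storing glycerol, and under strong light with salt or nutrient stress it is known for accumulating beta-carotene. The locus tags carry no product names in the sources used here, so none of the 200 can be assigned to these or other pathways, and each is described by its counts, its gene model and its position in the annotation.

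The study compared wild-type vegetative cells in whole culture, taken from exponentially growing cultures and divided into 2 treatments. The deep-water cultures grew in Sistan deep water (2 libraries) and the control cultures stayed in standard medium with 30 g/L NaCl (2 libraries), both at 25 ± 2 °C under 16 h of light and 8 h of dark. The time of harvest and the salt content of the deep water are not given in the labels. The design calls the libraries of a group biological replicates, and the labels give each library its own batch, so that no batch holds both groups and batch could not enter the fit.

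Totals were 127736776 and 149180358 counts in deep water 1 and 2, against 78109607 and 109813468 in control 1 and 2. Over the whole pool the deep-water libraries lay close together, with a median absolute log2 difference of 0.23 between them, while the 2 controls differed by 0.61. The pool sets a floor for both deep-water libraries and none for the controls, which in part favours closer deep-water values. Because the controls differed in the pool, both control values are given for each transcript.

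**Figure D1:**
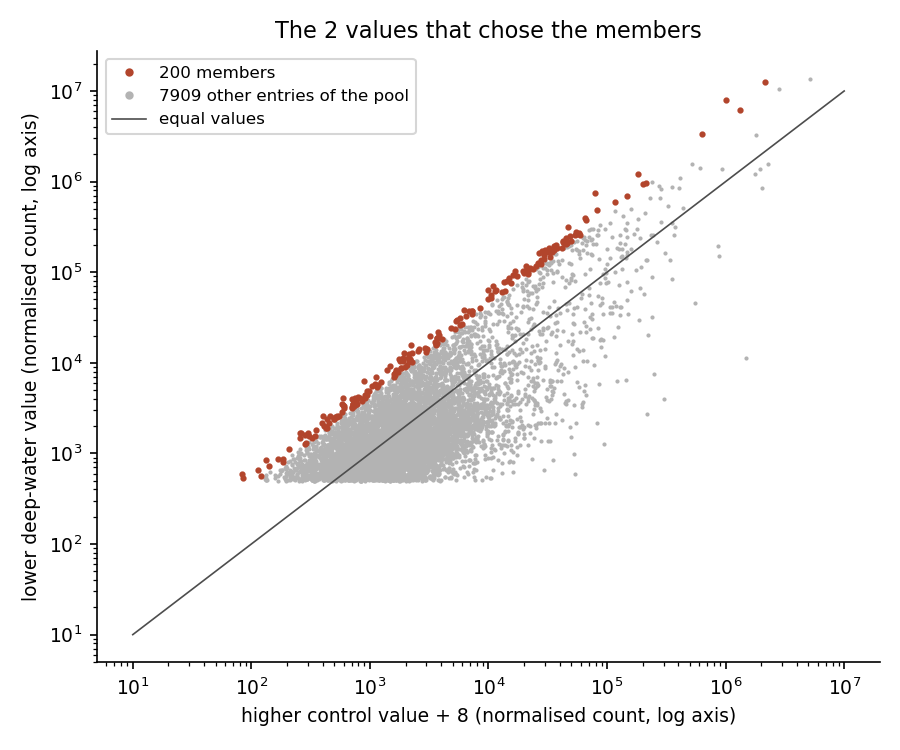
Each point is an entry of the selection pool, with the higher control value plus 8 on the horizontal axis and the lower deep-water value on the vertical axis, both as normalised counts on log axes. The 200 members (red) form the upper edge of the 8109 entries, from the floor of 500 to DUNSADRAFT_14206 at the top of the red points, and the line marks equal values.

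The ratio that chose the members had a median of 4.99 (quartiles 4.67 and 5.50), and ran from 4.40 to 9.39. For 101 of them the ratio was under 5, and for 25 it was over 6, so that most members lie close to the limit of the list. The 3 last members were DUNSADRAFT_11129, DUNSADRAFT_13148 and DUNSADRAFT_775, with ratios of 4.42, 4.42 and 4.40. The 3 entries just outside were DUNSADRAFT_9105, DUNSADRAFT_11938 and DUNSADRAFT_14761, with ratios of 4.40, 4.39 and 4.39. There was no gap between the members and the next entries.

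On group means, the members' deep-water level was a median 6.20-fold that of the controls, from 4.72-fold to 28.2-fold. It was over 8-fold for 24 members and over 16-fold for 4. In edgeR's quasi-likelihood fit over all entries, which scales libraries by TMM factors, the members had a median log2 fold change of 2.66 (quartiles 2.53 and 2.89), against -0.13 over all 17858 entries tested, and all 200 passed that fit's filter on low counts. Scaling by library size alone moved the median of all entries to -1.48 and that of the members to 1.32, and all 200 stayed higher in deep water. These sizes describe the choice of members and carry no test.

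The edgeR test called 0 of the 200 members at an adjusted p under 0.05, where 0% of all 17858 entries were called and 4371 had an unadjusted p under 0.05. At an unadjusted p under 0.05, 199 members were higher in deep water, against a background of 14.9% of entries. Both deep-water values lay above both controls for all 200, as the ratio requires, and for 29.9% of all entries. The DESeq2 Wald test called 198 members higher, with 12.3% of its entries called in that direction. Without control 1 the edgeR test called 199 members higher (10.8% of entries), and without control 2 it called 200 (19.6% of entries). These last fits take their lone control to be as variable as the deep-water cultures, and nothing is read from counts of members in the contrast that chose them.

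The highest ratio belonged to DUNSADRAFT_6890, a gene model with a span of only 150 bases, the shortest of the list. It had normalised counts of 750492 and 1136061 in deep water 1 and 2, against 3211 and 79901 in control 1 and 2. The groups did not overlap, but the controls differed from each other 24.9-fold, more than the 9.39-fold of the ratio itself. The second in rank was its neighbour DUNSADRAFT_6891, at 7882252 and 9143971 in deep water 1 and 2, against 41821 and 1017347 in control 1 and 2. Here too control 1 was by far the lowest library, and control 2 was 24.3-fold above it.

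The next members by ratio were steadier. DUNSADRAFT_11028 had 15813 and 15753 in deep water 1 and 2, against 2205 and 2168 in control 1 and 2, a log2 fold change of 2.88 ± 0.42 (SE, n = 2 per group). DUNSADRAFT_12075 had 6296 and 6700 in deep water, against 881 and 757 in the controls, a log2 fold change of 3.02 ± 0.37 (SE). In both, each pair of replicates lay close together and far from the other pair, which the ranking by ratio favours. DUNSADRAFT_18313, near the floor of the rule, had 594 and 586 in deep water, against 56.1 and 75.8 in the controls. DUNSADRAFT_8963 had 12748 and 13890 in deep water, against 1636 and 1922 in the controls, and its gene model overlaps that of DUNSADRAFT_8962, so reads of these neighbours may not be separable. DUNSADRAFT_6348, with a span of 225 bases, had 1662 and 2278 in deep water, against 192 and 248 in the controls. For these 3 as well, the gap between the groups was larger than the gap within either, which the ranking also favours.

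DUNSADRAFT_10757 differed from them in its controls. It had 4349 and 4098 in deep water 1 and 2, against 38.5 and 589 in control 1 and 2, so that its size rests on which control is used. DUNSADRAFT_17682 and DUNSADRAFT_13274 combined a high ratio with a high level. DUNSADRAFT_17682 had 1220360 and 1347343 in deep water, against 141346 and 181848 in the controls. DUNSADRAFT_13274 had 314367 and 348996 in deep water, against 43159 and 46999 in the controls. In both of these the 2 values of each group lay within 1.5-fold of each other.

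**Figure D2:**
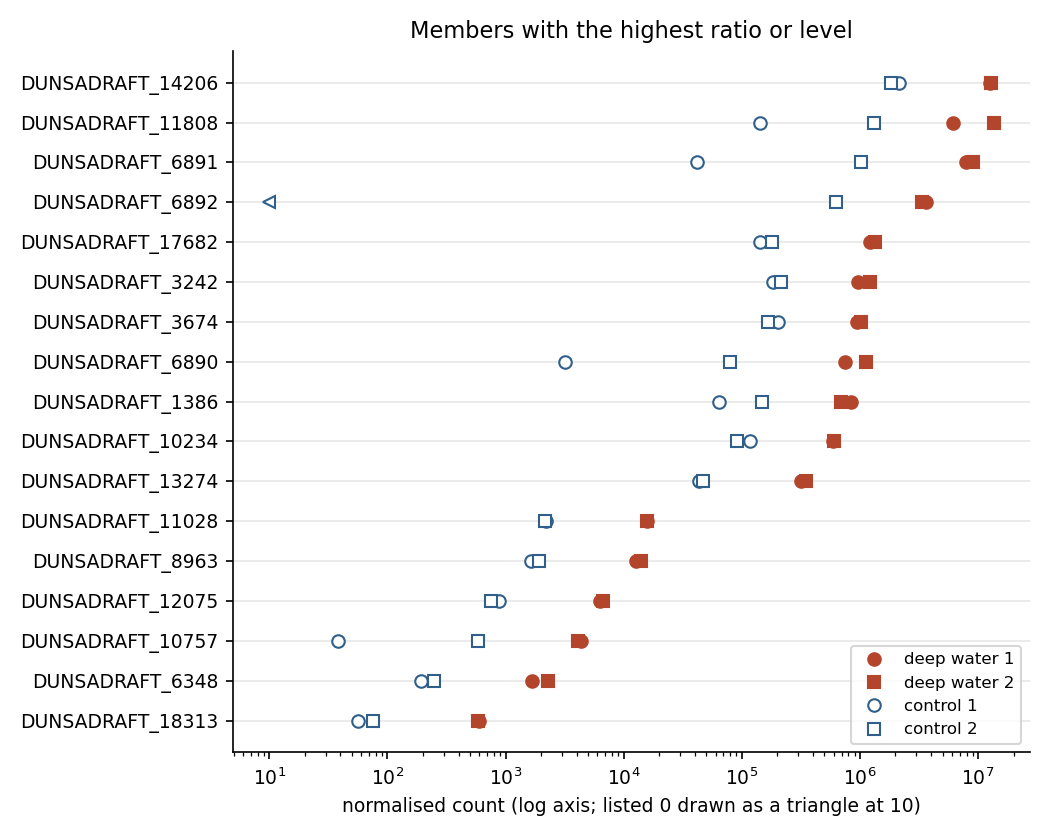
Normalised counts (log axis) of the 10 members with the highest ratio and the 10 with the highest deep-water mean, 17 transcripts in all, in each of the 4 libraries (filled red, deep water; open blue, control; circles, replicate 1; squares, replicate 2). Deep-water values lie right of both controls in every row, and control 1 lies far left of control 2 for DUNSADRAFT_6890, DUNSADRAFT_6891, DUNSADRAFT_6892, DUNSADRAFT_11808 and DUNSADRAFT_10757.

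Ordered by level instead, the list held some of the most heavily counted entries of the series. Counts are not per transcript length, so this order says how much of a library an entry takes, not how many molecules it stands for. DUNSADRAFT_14206, with a span of 498 bases, had 12523544 and 12766235 in deep water 1 and 2, against 2136310 and 1830086 in control 1 and 2. It took 7.88% and 6.20% of all counts in deep water 1 and 2, against 3.41% and 2.22% in control 1 and 2. Its replicates were close in both groups, so this highest member does not depend on a single control.

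DUNSADRAFT_11808 came next and was among the least even members. It had 6173009 and 13519130 in deep water 1 and 2, against 143277 and 1317648 in control 1 and 2. The deep-water libraries differed 2.19-fold and the controls 9.20-fold, with replicate 2 higher in each group. Its gene model, at 25.6 kb, was the second longest of the list. DUNSADRAFT_6892 had 3596917 and 3384098 in deep water, against a listed 0 in control 1 and 630021 in control 2. Since control 1 holds no value from 1 to 9, its 0 may hide as many as 9 reads, and no fold over control 1 is given.

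Of the 4 members among the 10 highest in deep water not yet described, 3 had closer controls. DUNSADRAFT_3242 had 956969 and 1209327 in deep water, against 183655 and 213719 in the controls. DUNSADRAFT_3674 had 935478 and 1027231 in deep water, against 202597 and 167011 in the controls. DUNSADRAFT_10234 had 589894 and 607674 in deep water, against 117550 and 91112 in the controls. In these 3 the deep-water means were 5.45-fold, 5.31-fold and 5.74-fold the control means. The fourth was DUNSADRAFT_1386, at 841035 and 684835 in deep water, against 64068 in control 1 and 147819 in control 2, and its gene model overlaps that of DUNSADRAFT_1387.

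Together the 200 members took 28.8% ± 1.1 of all counts in deep water, against 8.66% ± 1.02 in the controls (SD, n = 2 each). By library this was 29.6% and 28.0% in deep water 1 and 2, against 7.94% and 9.39% in control 1 and 2. With 2 libraries against 2, an exact two-sided permutation test cannot give a p below 0.33. Most of the share in deep water came from 4 members, DUNSADRAFT_14206, DUNSADRAFT_11808, DUNSADRAFT_6891 and DUNSADRAFT_6892. They took 19.0% and 18.9% in deep water 1 and 2, against 3.71% and 5.82% in control 1 and 2. The other 196 took 10.6% and 9.18% in deep water, against 4.23% and 3.57% in the controls. A higher share in deep water is fixed by the choice of members for any part of the list. In RNA from whole cultures, more RNA of a transcript per cell and more cells that make it cannot be told apart. In deep water 26 members were among the 100 entries with the highest mean, against 9 in the controls.

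The list was made up unevenly across levels. Of the pool entries with a deep-water mean of 500 to 1000, 9 of 2089 were members (0.43%), and of those from 1000 to 10000, 72 of 5226 (1.38%). From 10000 to 100000 the members were 60 of 587 (10.2%), from 100000 to 1000000 they were 53 of 187 (28.3%), and above that 6 of 20 (30.0%). The rule itself favours entries with a high deep-water value, so these shares describe the list. By control level the shares were less uneven: members were 2.78% of pool entries with a control mean under 1000, 1.28% from 1000 to 10000, 11.4% from 10000 to 100000, and 11.8% above 100000.

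The 2 controls were not interchangeable for these transcripts. Control 2 was above control 1 for 150 of 200 members (75%), against 53.3% of the whole pool, and the median log2 difference of the members was 0.28. A gap of over 2-fold occurred for 38 members (19%), always with control 2 higher. In the pool it occurred for 29.4% of entries, 1417 with control 2 higher and 970 with control 1 higher. In absolute size the controls differed less for the members, with a median log2 difference of 0.35, against 0.61 in the pool. The ratio treats the controls alike, but it divides by the higher of them, which disfavours entries with 1 high control. The deep-water libraries differed by over 2-fold for 2 members (1%), against 3.79% of the pool, and by over 1.5-fold for 5 (2.5%), against 12.9%. Ranking on the lower deep-water value favours entries whose deep-water libraries lie close together.

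Among the 38 members with control 2 over 2-fold above control 1, the deep-water mean was a median 13.9-fold control 1 and 5.57-fold control 2. Among the other 162 members these medians were 6.31-fold and 5.69-fold. The split by the controls and the ratio over the higher control fix this pattern of folds. The 38 were also lower in level and shorter, with a median span of 1.21 kb against 3.03 kb.

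Control 2 was over 4-fold above control 1 for 8 members (4%), against 8.08% of pool entries with such a gap in either direction. These 8 members were named after their values were seen. Besides DUNSADRAFT_6890, DUNSADRAFT_6891, DUNSADRAFT_6892, DUNSADRAFT_11808 and DUNSADRAFT_10757 they were DUNSADRAFT_5080, DUNSADRAFT_8274 and DUNSADRAFT_15237. DUNSADRAFT_5080 had 2663 and 2558 in deep water, against 73.7 in control 1 and 391 in control 2. DUNSADRAFT_8274 had 541 and 803 in deep water, against a listed 0 in control 1 and 76.6 in control 2. DUNSADRAFT_15237 had 931 and 857 in deep water, against 25.6 in control 1 and 160 in control 2. In all 3 control 2 lay between control 1 and the deep-water libraries.

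The 2 members with deep-water libraries over 2-fold apart were DUNSADRAFT_11808 and DUNSADRAFT_2008. DUNSADRAFT_2008 was named after its values were seen. DUNSADRAFT_2008 had 78255 and 430921 in deep water 1 and 2, against 4647 and 13390 in control 1 and 2. It had the highest fold of group means in the list, 28.2, but deep water 2 was 5.51-fold above deep water 1, and only the lower of them entered its ratio of 5.84.

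The shift of control 2 above control 1 varied with the level of the transcript. For the 81 members with a deep-water mean under 10000, control 2 was higher in 69, and the median of control 2 over control 1 was 1.38. For the 60 members from 10000 to 100000 it was higher in 49, with a median ratio of 1.20. For the 59 members from 100000 it was higher in 32, with a median ratio of 1.08. From the lowest class to the highest, controls were over 2-fold apart for 25, 6 and 7 members. Median absolute log2 differences were 0.47, 0.27 and 0.23. Among members with controls over 4-fold apart, DUNSADRAFT_6890, DUNSADRAFT_6891, DUNSADRAFT_6892 and DUNSADRAFT_11808 were in the highest class. The others with such a gap were in the lowest class. Median log2 fold changes were alike in these classes, at 2.72, 2.65 and 2.61 from the lowest level to the highest. The rule in part sets this likeness, since every member has a ratio of at least 4.40 and most lie close to that limit.

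**Figure D3:**
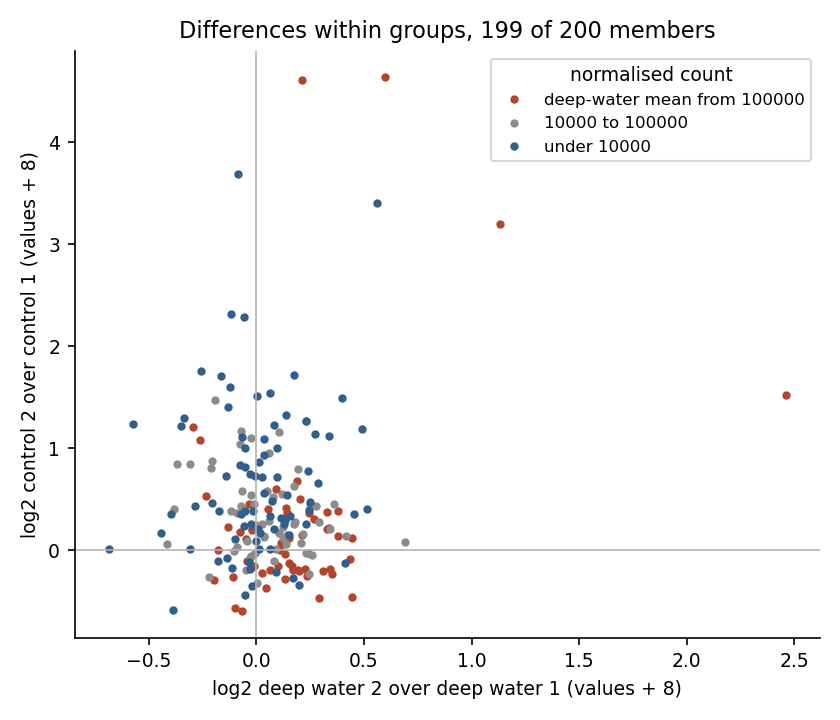
For 199 members, the log2 ratio of deep water 2 over deep water 1 (horizontal axis) and of control 2 over control 1 (vertical axis), each computed on normalised counts plus 8, with colours for the deep-water mean. Points spread more along the vertical axis and mostly above 0, and the blue points, under 10000, lie higher than the red ones; DUNSADRAFT_6892, listed at 0 in control 1, lies beyond the axis and is not drawn.

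The members had short gene models. Span here is the length from the start to the end of the gene in the Dunsal1 v. 2 annotation of strain CCAP 19/18, introns included. All 200 members had a value, and the rule did not use it. No source used here names the genome build that the authors counted on, so the match rests on equal locus tags. The median span was 2.85 kb for the members (quartiles 1.25 and 5.56 kb), against 12.4 kb for the other 7909 entries of the pool (quartiles 6.48 and 20.3 kb) and 6.94 kb for all 14363 single entries. A span under 1 kb was found for 33 members (16.5%), against 1.91% of the other pool entries. A span under 5 kb was found for 143 members (71.5%), against 18.0% of the other pool entries, and a span from 20 kb upwards for 3 members (1.5%), against 25.7%. The 3 longest were DUNSADRAFT_10958, DUNSADRAFT_11808 and DUNSADRAFT_13222, of which the first and the last are named after their values were seen.

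**Figure D4:**
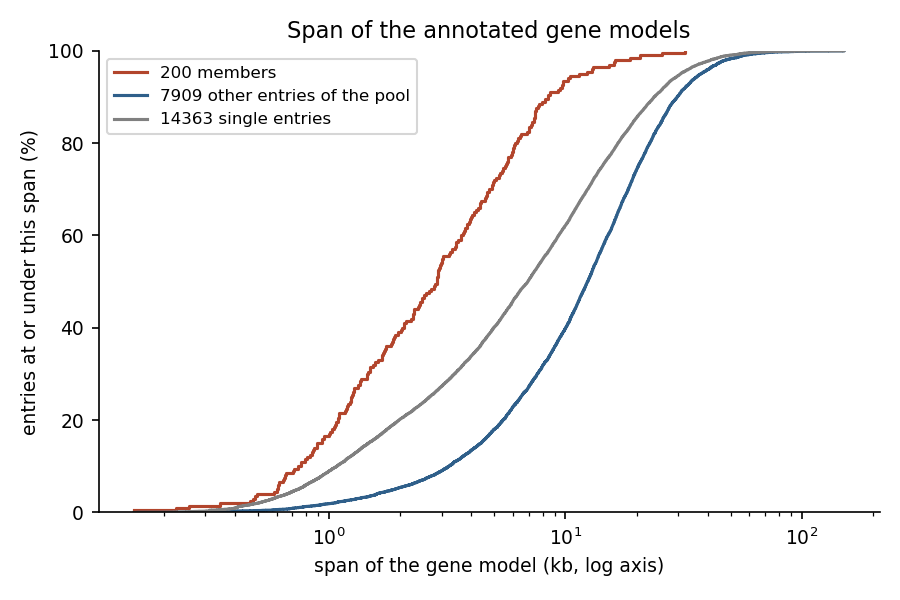
Cumulative share of entries (%) at or under a given span of the gene model (kb, log axis) for the 200 members, the 7909 other entries of the pool and all 14363 single entries. The members' curve lies left of the others over most of the range, and crosses 50% near 2.85 kb, against 12.4 kb for the other pool entries.

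Short spans were found in the list at every level of control expression. Among pool entries with a control mean under 1000, the median span was 1.31 kb for 68 members, against 5.97 kb for the others. From 1000 to 10000 it was 3.82 kb for 65 members, against 16.3 kb for the others. From 10000 to 100000 it was 4.01 kb for 58 members, against 16.2 kb, and above 100000 it was 3.68 kb for 9 members, against 14.8 kb. The members were thus shorter than entries of like control level in each of the 4 classes. Read the other way, 17.9% of pool entries under 1 kb were members, 14.0% of those from 1 to 2 kb, 6.13% from 2 to 5 kb, 2.47% from 5 to 10 kb, 0.37% from 10 to 20 kb and 0.15% of those from 20 kb. These shares are in part set by the pool's floor, which admits entries with controls below it only where deep water is higher. Pool entries under 1 kb had a median control level of 375 and a median log2 fold change of 2.16. From 20 kb these medians were 3004 and -0.44. The same limit holds for pool entries with a control mean under 1000, whose median log2 fold change was 1.02.

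Span went with the deep-water difference beyond the members as well. Over all single entries tested, the median log2 fold change was 0.42 under 1 kb, 0.19 from 1 to 2 kb, 0.20 from 2 to 5 kb, 0.03 from 5 to 10 kb, -0.15 from 10 to 20 kb and -0.45 from 20 kb. With the members left out these medians were 0.32, 0.12, 0.17, 0.01, -0.16 and -0.45, so the 200 did not carry the order. Among entries with a mean of at least 500 over all 4 libraries the medians were 2.00, 1.83, 1.24, 0.38, -0.12 and -0.45 in the same order. That filter counts the deep-water values, so an entry can pass it through the group where it is high, and its sizes are in part set by it. Of these entries, 69.6% of those under 1 kb and 18.3% of those from 20 kb had both deep-water values above both controls.

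The shape depended on how low entries were removed. Among entries with a mean of at least 500 over the controls, the medians were -0.09, 0.84, 0.71, 0.07, -0.16 and -0.45, so the shortest class no longer stood highest. This class held 116 entries, against 171 with the filter over all 4 libraries, and their control 2 lay below control 1 by a median 0.68 on the log2 scale.

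Within groups, the order by span was weaker, and between the controls it depended on how low entries were removed. Over all single entries tested, the median log2 ratio of control 2 over control 1 was 0.20 under 1 kb and -0.12 from 20 kb, while that of deep water 2 over deep water 1 was 0.00 in each of these classes. Low counts were not listed alike across the deposited libraries. Control 2 listed 46 entries at 0 and held 28 counts from 1 to 9. Deep water 1, deep water 2 and control 1 listed 449, 567 and 644 entries at 0 and held no count from 1 to 9. The 28 counts of control 2 do not make up the gap in entries at 0, and its cause was not tested. Among entries with at least 10 counts in every library, a filter chosen after seeing the data, control 2 over control 1 had a median of -0.11 under 1 kb (779 entries) and -0.12 from 20 kb, so the controls no longer differed by span between these classes. The median log2 fold change of deep water over control was 0.66 and -0.45 in the same classes. Classes between them were not compared with this filter. With a mean of at least 500 over all 4 libraries, control 2 over control 1 was 0.24, 0.46, 0.18, 0.03, -0.04 and -0.12 from shortest to longest. With that mean over the controls it was -0.68, 0.19, -0.08, -0.09, -0.04 and -0.12. The labels give no RNA integrity values, and length-dependent recovery of RNA or reads was not tested.

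**Figure D5:**
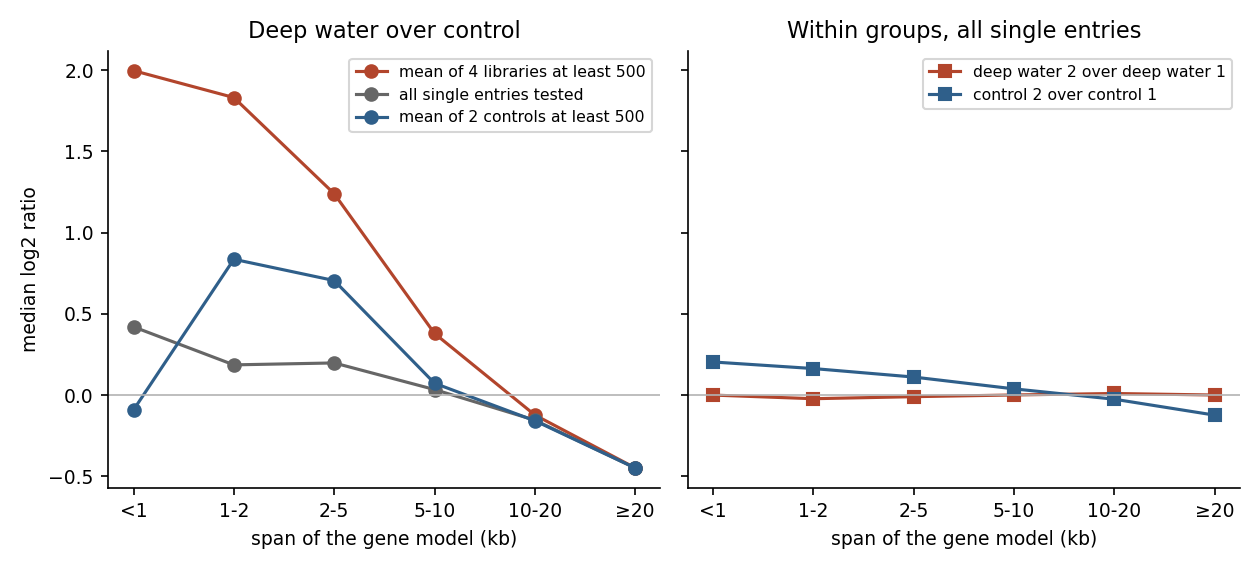
Median log2 ratio by span of the gene model (kb): left, deep water over control from the edgeR fit for 3 sets of single entries; right, the second replicate over the first within each group, on normalised counts plus 8. From 2 to 5 kb upwards the deep-water difference falls with span in all 3 sets, to -0.45 in the longest class. The right panel shows a smaller fall between the controls and none between the deep-water libraries. Without entries under 10 counts in a library, the controls' ratio was alike in the shortest and longest classes, the only classes compared with that filter.

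Most members were scattered over the annotation. The next locus tag before or after was also a member for 11 of the 200 (5.50%), while 2.84% of the other pool entries had a member next to them. Within 3 locus tags the figures were 21 members (10.5%) and 7.70%. The 11 were 1 run of 3 and 4 pairs, and the scaffold on which each locus tag lies was not compared.

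The run of 3 was DUNSADRAFT_6890 to DUNSADRAFT_6892. Summed, it took 7.69% and 6.64% of counts in deep water 1 and 2, against 0.07% and 2.10% in control 1 and 2. The models of DUNSADRAFT_6891 and DUNSADRAFT_6892 overlap. DUNSADRAFT_6892 held 31.3% and 27.0% of their joint count in deep water, against 0% in control 1 and 38.2% in control 2, so the division of reads between them differed in control 1. On 1 side the run was followed by DUNSADRAFT_6893, a non-member named after its values were seen, with 310 and 172 in deep water, against 1523 and 536 in the controls. On the other side stood DUNSADRAFT_6889, also a non-member named after its values were seen, with 10427376 and 14617041 in deep water, against 208709 and 2846412 in the controls. Beyond it stood DUNSADRAFT_6888, another non-member named after its values were seen. It had 1371924 and 2889267 in deep water, against 8825 in control 1 and 930808 in control 2. The high levels therefore extended past the run in 1 direction and stopped in the other. For DUNSADRAFT_6888 and DUNSADRAFT_6889, as in the run, control 1 was by far the lowest library.

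The 4 pairs were also named after their values were seen. DUNSADRAFT_7908 had 14773 and 12811 in deep water, against 1232 and 2268 in the controls, and DUNSADRAFT_7909 had 13608 and 10545, against 1170 and 2113. These neighbours were alike in all 4 libraries, and whether they are near-identical copies that share reads was not tested. DUNSADRAFT_17036 had 260255 and 353958 in deep water, against 54047 and 39212 in the controls, and DUNSADRAFT_17037 had 127522 and 150302, against 27388 and 22932. DUNSADRAFT_6577 had 11403 and 11872 in deep water, against 980 and 1904 in the controls, whereas DUNSADRAFT_6578 had 1639 and 1486, against 148 and 251. DUNSADRAFT_13808 had 2547 and 1998 in deep water, against 167 and 399 in the controls, and DUNSADRAFT_13809 had 5365 and 4404, against 669 and 907. Neighbours in the last 3 pairs stood at unlike levels, while their shared direction is fixed by the choice of members.

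Another close pair, DUNSADRAFT_13272 and DUNSADRAFT_13274, enclosed the non-member DUNSADRAFT_13273, and all 3 were heavily counted. DUNSADRAFT_13272 and DUNSADRAFT_13273 were named after their values were seen. DUNSADRAFT_13272 had 398768 and 443032 in deep water, against 64873 and 59602 in the controls. The enclosed DUNSADRAFT_13273 had 207326 and 206883 in deep water, against 81395 and 31495 in the controls. Its deep-water values lay above both controls too, but its controls were over 2-fold apart, with control 1 higher, which is the reverse of the uneven members.

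Non-member genes next to members had smaller differences than the members, which is in part fixed, since neighbours that passed the rule are left out. For 334 single entries next to a member and not members themselves, log2 fold changes had a median of 0.17 (quartiles -0.71 and 1.07), against -0.09 (quartiles -0.88 and 0.84) for the other 13820 single entries tested. Both deep-water values were above both controls for 39.5% of these neighbours, against 31.3% of the other entries, and below both for 24.0%, against 30.2%. Gene models of 21 members (10.5%) overlapped the preceding or following locus tag, against 13.9% of the pool, and for these the counts depend on how reads in the overlap were assigned.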

How the data were processed

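RNA was sequenced from 4 whole-culture libraries, 2 of deep-water and 2 of control cultures, grouped by sample titles. The deposited raw counts are whole numbers per annotated entry. The deposited normalised signal equals these counts divided by 1 factor per library. R 4.5.1 and DESeq2 are listed in the submitters' processing notes. The sources used here name no aligner, counting program, genome build or strand setting.

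The members and lists were chosen with earlier results of these data known, and the rule used the normalised values of all 4 libraries. The main comparison of deep water with control used edgeR 4.0.16 (R 4.3.3): quasi-likelihood test on the counts, TMM factors, default low-count filter, group as the single term, Benjamini-Hochberg adjustment over 17858 entries at 0.05. Standard errors are log2 fold changes over the square root of F. The script was tested on simulated counts. Alternatives used DESeq2 1.42.0, limma 3.58.1, other scalings, filters and selection settings, a replicate block, and each library left out. Spans, neighbours and overlaps come from the Dunsal1 v. 2 gene table, in which all 200 members matched a locus tag. Named transcripts are the 10 with the highest ratio, the 10 with the highest deep-water mean, 3 on each side of the limit, and runs of 3 or more neighbours; for any other, its passage says that it was chosen after its values were seen. Gene lists, protein measures and sequences were not used, since no product names or sequences were at hand. Replicates may share technical sources, and the p-values measure only the spread between these libraries.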

Additional observations from a re-analysis of the deposited data

How the results depend on the processing

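The number of entries called by edgeR's quasi-likelihood test at an adjusted p under 0.05 was 0 (4371 at an unadjusted p under 0.05). It was 3438 with library size alone, 3028 with the DESeq2 Wald test, and 0 to 6205 upon leaving out single libraries. The members called higher were 0 in the main setting, 4 with library size alone, 0 to 200 upon leaving out single libraries, and 198 by the DESeq2 test. Other scalings and filters, limma-voom, limma-trend and the replicate block gave 0 for both counts. The members' median log2 fold change was 2.66, 1.32 with library size alone, and 2.50 to 2.75 in the other alternatives, with 2.67 under the replicate block. Same-numbered libraries' deviations correlated at 0.06, and the labels give no shared day, so they were not taken as pairs. Each of 140 values for the 20 named members under these settings kept its direction, which the choice of members favours. They ran from 0.92 to 8.18 for the members other than DUNSADRAFT_6892, which ran from 2.35 to 24.6, with 10.3 under the replicate block and 24.6 without control 2, where it is set against a listed 0.

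Other floors, offsets or TMM scaling of the selection kept 187 to 199 of the 200 members, library size alone kept 152, and means in place of extremes kept 121. With each library left out 47 to 156 were kept: 47 without control 2, 128 without control 1, 138 without deep water 2 and 156 without deep water 1. Members with a member next to them numbered 11, or 21 within 3 locus tags and 5 among the first 100 members. The members' share of counts was 16.7% in deep water and 4.81% in control without the 10 most abundant entries, and 18.9% and 5.65% for the first 100 members. Among settings added after seeing the data, the first 100 members had a median span of 2.08 kb, and requiring 10 counts in all libraries changed the median log2 ratio of control 2 over control 1 from 0.20 to -0.11 for single entries under 1 kb and left it at -0.12 from 20 kb. For the differences between settings the cause was not tested, beyond the fewer members or entries that some hold by construction. Alternatives for similar proteins, protein length and acidic residues were not run, as no protein sequences were at hand.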
